A study of Mus musculus with 6 samples.

Results

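Cd83, Cd40, Cd80 and Cd86 encode surface molecules through which an antigen-presenting cell activates T cells, and their RNA was compared between stimulated and resting macrophages. The genes were taken as every probe annotated to one of these 4 symbols, a rule that uses no measured value. The 4 symbols themselves were chosen with earlier results of these data known. The rule gave 5 probes of the 13738 probes that carry a single symbol, and 4 genes of 10698. Cd83 had 2 probes, and Cd40, Cd80 and Cd86 had 1 each.

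The cells were RAW 264.7, an established mouse macrophage line, which the series title and some of the labels write as RAW 264.4. One RNA came from untreated cells and the other from cells given lipopolysaccharide (LPS, 100 ng/ml), a component of the outer membrane of Gram-negative bacteria, together with LPS-binding protein (LBP, 100 pM), which hands LPS to its receptor. Both had been cultured for 1 h, so a single time and a single dose were measured in 1 line. Each of 6 dual-channel arrays carried both total RNAs, with the treated RNA in Cy5 on 3 arrays and in Cy3 on the other 3, and the arrays of each orientation are numbered as sets 1 to 3. Every value below is a log2 ratio of treated over untreated RNA, so that 1 is a doubling, and carries no level of either RNA. The sign follows from Cy5 being the numerator, since the labels call the Cy5 RNA the test on all 6 arrays, and each sign would turn with Cy3 as the numerator. A listed value of exactly 0 was treated as missing.

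CD80 and CD86 are the B7 ligands that bind CD28 on T cells and deliver the second signal needed beside antigen, and the same ligands bind the inhibitory receptor CTLA4. CD40 belongs to the tumour necrosis factor (TNF) receptor superfamily. When CD40 ligand on a helper T cell engages it, TRAF adaptors activate NF-kappaB, and the macrophage or dendritic cell becomes a stronger stimulator of T cells. CD83 is an immunoglobulin-type protein used as a marker of mature dendritic cells, and its membrane domain protects MHC class II and CD86 from ubiquitination by the ligase MARCH1.

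The 4 genes split evenly. Cd83 and Cd40 rose, whereas Cd80 averaged 0.065 ± 0.13 (SD, n = 3 sets) and Cd86, measured on 5 arrays, averaged -0.01 ± 0.25 (n = 3 sets), and neither passed the test. Calls were made at an adjusted p under 0.05 in a limma fit of the set averages across all genes with a ratio on all 6 arrays. Of the 8331 genes in that fit, 13.2% were called, 6.96% upward and 6.21% downward. Cd83, Cd40 and Cd80 were in it, and 2 of these 3 were called upward. In bulk RNA of this kind, a change in the share of cells that express a gene cannot be told apart from a change in RNA per cell.

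**Figure D1:**
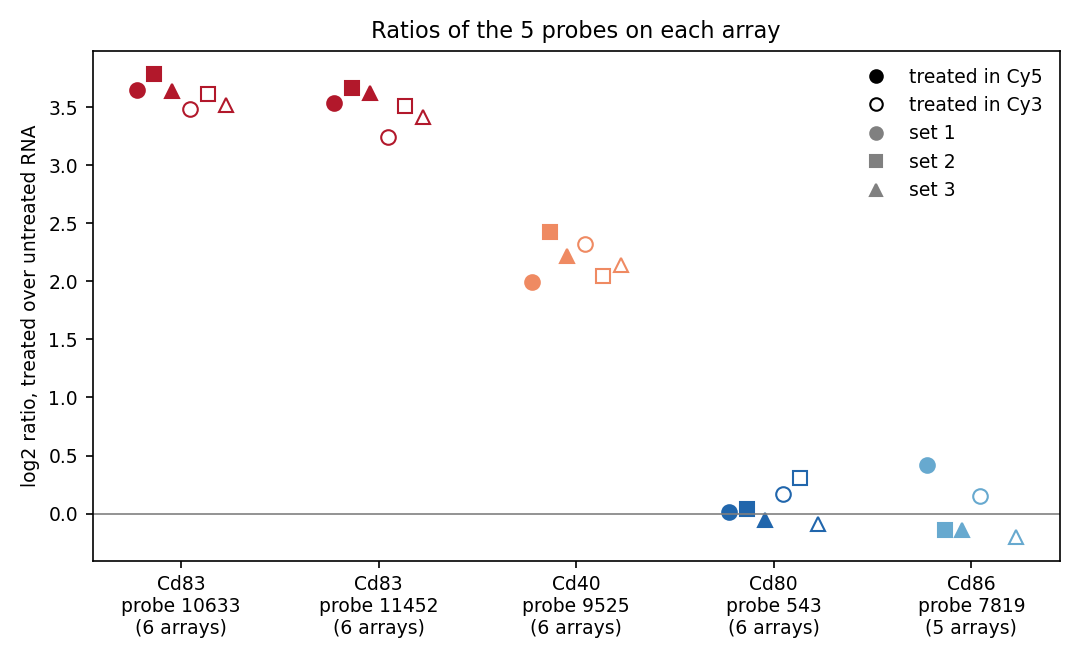
Log2 ratio of treated over untreated RNA (vertical axis) for each of the 5 probes (horizontal axis). Filled symbols are arrays with treated RNA in Cy5, open symbols those with treated RNA in Cy3, and circles, squares and triangles are sets 1, 2 and 3. Both Cd83 probes lie between 3.24 and 3.78 and Cd40 between 1.99 and 2.43 on every array, while Cd80 and Cd86 lie on both sides of 0.

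Cd83 had the larger response. Its probe 10633 read 3.64, 3.78 and 3.64 in sets 1, 2 and 3 when Cy5 carried the treated RNA, and 3.49, 3.62 and 3.52 when Cy3 did. Its probe 11452, which the annotation assigns to the same transcript, read 3.54, 3.66 and 3.62 in Cy5 and 3.24, 3.51 and 3.41 in Cy3. Set 2 was the highest of the sets and set 1 or set 3 the lowest in each of these groups of arrays, and every array lay far above 0. The mean of both probes was 3.56 ± 0.08 (SD, n = 3 sets), an 11.8-fold rise with a 95% confidence interval of 10.9- to 12.8-fold (limma, adjusted p = 1.18e-06), and higher in treated RNA on 6 of 6 arrays. Only 3 of the 8331 genes had a higher mean than Cd83.

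The probes of Cd83 differed slightly from each other. Probe 10633 gave a 12.2-fold and probe 11452 an 11.3-fold rise, and the first read higher on 6 of 6 arrays, by 0.12 ± 0.06 (SD, n = 3 sets) with a range of 0.017 to 0.243. The exact two-sided sign-flip permutation test over arrays gave p = 0.03125, the smallest that 6 arrays allow. It took the arrays as separate units, although arrays of the same set may share RNA. This comparison was chosen after the values were seen. Without set 1, 2 or 3 the difference was 0.0875, 0.117 and 0.145, each on 4 arrays, where the smallest possible p is 0.125. For scale, the gap between the probes of a gene had a median of 0.062 over the 1364 genes with 2 complete probes, and 26.4% of them had a larger gap than Cd83. Among the 8 such genes whose mean was 2 or more in size, the median gap was 0.36, and 2 had a smaller gap than Cd83.

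Cd40 rose less. Its probe read 1.99, 2.43 and 2.22 in sets 1, 2 and 3 when Cy5 carried the treated RNA, and 2.32, 2.05 and 2.14 when Cy3 did. The order of the sets was opposite in the orientations, with set 2 highest in Cy5 and lowest in Cy3. The mean was 2.19 ± 0.04 (SD, n = 3 sets), a 4.57-fold rise with a 95% interval of 4.26- to 4.90-fold (limma, adjusted p = 3.54e-06), and higher on 6 of 6 arrays. Because the deviations of the orientations cancelled in the set averages, the SD over the single arrays was 0.16, larger than that over sets and than the 0.11 and 0.15 of the Cd83 probes. In a fit of the 6 arrays as separate samples, the interval of the log2 ratio widened from 2.09 to 2.29 to a range of 2.04 to 2.34, and Cd40 was called there too, as were 17.3% of 8331 genes.

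Cd80, the B7 ligand also named B7-1, did not pass the test. Its probe read 0.014, 0.040 and -0.058 in sets 1, 2 and 3 when Cy5 carried the treated RNA, and 0.17, 0.31 and -0.089 when Cy3 did. The ratio was above 0 on 4 of 6 arrays, and both arrays of set 3 were below. The mean of 0.065 ± 0.13 (SD, n = 3 sets) was a ratio of 1.05 with a 95% interval of 0.949 to 1.15 (limma, adjusted p = 0.522), so that the interval reached from a 1.05-fold fall to a 1.15-fold rise. Without set 3 the mean was 0.13, with an unadjusted p of 0.0444 and an adjusted p of 0.19 (limma), and over 13 alternative settings the adjusted p ran from 0.19 to 0.988.

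Cd86, the ligand also named B7-2, was listed at 0 on the set 2 array with treated RNA in Cy3. Its probe read 0.41, -0.14 and -0.14 in sets 1, 2 and 3 when Cy5 carried the treated RNA, and 0.15 and -0.21 in sets 1 and 3 when Cy3 did. Both arrays of set 1 were above 0 and all 3 others were below. It was therefore tested in a fit that admits incomplete probes, in which 6.38% of 10261 genes were called and in which set 2 rests on 1 dye orientation for this gene. The mean was -0.01 ± 0.25 (SD, n = 3 sets), a ratio of 0.993 with a 95% interval of 0.821 to 1.20 (limma, adjusted p = 0.965). The sign of this mean rests on single sets. Without set 1 it was -0.16 (adjusted p = 0.361), while it turned to 0.055 without set 2 and to 0.072 without set 3. In the same fit Cd83 and Cd40 were called, with adjusted p-values of 0.000165 and 0.000329, and Cd80 was not (adjusted p = 0.601).

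The size of the response was also compared between the genes, over the 3 pairs of genes with a ratio on all arrays. The log2 ratio of Cd83 exceeded that of Cd40 by 1.36 ± 0.04 (SD, n = 3 sets), or 2.58-fold, and by 1.04 to 1.60 on single arrays. Cd83 exceeded Cd80 by 3.49 ± 0.12, and Cd40 exceeded Cd80 by 2.13 ± 0.11. Each of these differences had 1 sign on 6 of 6 arrays. The exact two-sided sign-flip permutation test gave p = 0.03125 before and after Benjamini-Hochberg adjustment over the 3 pairs, the smallest p that 6 arrays allow. It took the 6 arrays as separate units, although arrays of the same set may share RNA. With a set left out, 4 arrays remain and the smallest possible p is 0.125, which all 3 pairs then had. Different probes can compress ratios to a different degree, and its part in these differences was not tested.

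**Figure D2:**
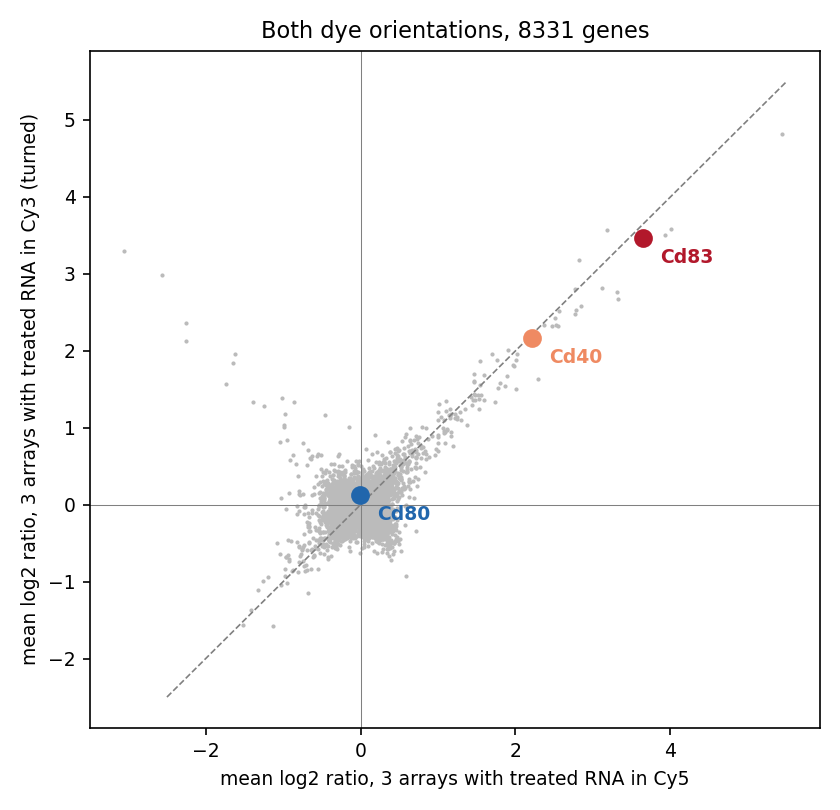
Mean log2 ratio of 8331 genes over the 3 arrays with treated RNA in Cy5 (horizontal axis) against the mean over the 3 arrays with treated RNA in Cy3, turned to treated over untreated (vertical axis). Grey points are genes and the dashed line marks equal means. Cd83 (3.65 and 3.46) and Cd40 (2.21 and 2.17) lie near the line, and Cd80 (-0.0014 and 0.13) lies near the origin.

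The dye orientations gave nearly the same ratio for the genes that rose. Cd83 averaged 3.65 with treated RNA in Cy5 and 3.46 in Cy3, and for the mean of its probes the lowest Cy5 array lay above the highest Cy3 array. The dye component of Cd83, tested on the unturned set averages, was 0.092 ± 0.018 (SD, n = 3 sets), with an unadjusted p of 0.0285 and an adjusted p of 0.149 (limma). It was 0.021 ± 0.18 for Cd40 (adjusted p = 0.865) and -0.066 ± 0.076 for Cd80 (adjusted p = 0.345). By this test 5 genes, or 0.06% of 8331, were called for a dye effect, and Cd83, Cd40 and Cd80 were not among them. With 3 set averages, a gene that was not called may still have a dye effect. The points toward the upper left of the plot of both orientations are genes whose sign differs between the orientations. Cd83 and Cd40 were above 0 in both, while Cd80 averaged -0.0014 in Cy5 and 0.13 in Cy3.

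The wider B7 family holds ligands and receptors by which antigen-presenting cells stimulate or restrain T cells. Of 12 genes with a ratio on all arrays, 1 rose and 1 fell (16.7%, against 13.2% of all genes), and the median was -0.011, against -0.0092 over all genes. Icosl, the gene of the list with the highest mean, had too few ratios to be among these 12 and is described separately. Pvr, a nectin-type ligand of CD226 and TIGIT, rose by 0.33 ± 0.05 (limma, adjusted p = 0.00504), with values of 0.159 to 0.480 on 6 of 6 arrays above 0. Its mean was 0.59 when the probe of largest ratio stood for the gene, and it missed the threshold without set 1 at 0.32 (adjusted p = 0.0529) and with Cy5 arrays alone at 0.23 (adjusted p = 0.055). Vsir, which encodes the inhibitory ligand VISTA, fell by 0.20 ± 0.02 (adjusted p = 0.0241) and was below 0 on 6 of 6 arrays, but with set 1, 2 or 3 left out the adjusted p was 0.128, 0.0864 and 0.0665, at means of -0.21, -0.19 and -0.20. The genes next in size did not pass. Cd28, the T cell receptor for CD80 and CD86, averaged 0.15, Icos averaged -0.10 and Pdcd1lg2, a ligand of the inhibitory receptor PD-1, averaged -0.11, with 0.42 on the Cy5 arrays. Cd274, the other PD-1 ligand, averaged -0.039 ± 0.014 (adjusted p = 0.579).

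Icosl, the B7-family ligand of ICOS, had ratios on 4 arrays and was called in the fit that admits incomplete probes. It is outside the rule by which genes were named and was described after its values were seen. Its probe read 1.48 and 1.45 in sets 2 and 3 when Cy5 carried the treated RNA, and 0.66 and 1.48 in sets 1 and 3 when Cy3 did. All 4 measured arrays were above 0, and the set 1 array was the lowest. The mean over sets was 1.20 ± 0.47 (SD, n = 3 sets, limma, adjusted p = 0.032), with only set 3 measured in both orientations. With zeros kept as ratios, its mean was 0.42 (adjusted p = 0.2), and a second probe of the gene was listed at 0 on all arrays.

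Upstream sequence is shown for Cd80, the B7 ligand without a call, beside Icosl and Fas, the genes of largest mean in the B7 and TNF superfamily lists with an entry in the RefSeq promoter table (GRCm38.p6), so that called and uncalled genes can be read side by side. Of Cd83, Cd40, Cd80 and Cd86, 1 matched the table by symbol, Cd80. The stretches are the 250 bases before the annotated start on the plus strand, at chr16:38458683-38458932 for Cd80, chr10:78069118-78069367 for Icosl and chr19:34290409-34290658 for Fas. Both strands were searched for the kappaB consensus bound by NF-kappaB and for TTCNNNGAA, the site of STAT factors. They were also searched for TGANTCA, a loose form of the AP-1 site in which N is any base. Matches are in capitals.
Cd80: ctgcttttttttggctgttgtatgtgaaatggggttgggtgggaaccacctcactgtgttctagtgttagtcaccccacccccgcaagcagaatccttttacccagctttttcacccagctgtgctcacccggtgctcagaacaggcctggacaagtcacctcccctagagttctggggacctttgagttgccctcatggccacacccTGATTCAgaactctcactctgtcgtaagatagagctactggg
Icosl: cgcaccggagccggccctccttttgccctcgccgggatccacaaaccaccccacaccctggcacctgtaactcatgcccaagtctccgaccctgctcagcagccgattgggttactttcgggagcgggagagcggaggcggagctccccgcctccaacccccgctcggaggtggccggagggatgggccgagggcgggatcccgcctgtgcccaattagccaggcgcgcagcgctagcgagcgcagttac
Fas: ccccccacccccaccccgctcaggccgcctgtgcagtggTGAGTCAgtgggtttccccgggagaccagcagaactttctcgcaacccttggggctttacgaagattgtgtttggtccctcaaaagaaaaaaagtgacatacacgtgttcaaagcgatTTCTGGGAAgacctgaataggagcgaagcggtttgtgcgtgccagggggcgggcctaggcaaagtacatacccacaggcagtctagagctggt
The Cd80 stretch held 1 match to the loose AP-1 letters, TGATTCA, which begins 42 bases before the start. The Fas stretch held 1 match to these letters, TGAGTCA, beginning 211 bases before the start. It also held 1 STAT match beginning 93 bases before the start. The matches of Cd80 and Fas thus differ at the open position. No search letters matched in the Icosl stretch, and the kappaB consensus matched in none of these windows. Over 32851 promoters of the same length, 3.90% held the kappaB consensus, 6.75% the AP-1 letters and 7.02% the STAT letters. These matches describe letters and say nothing of binding.

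Among TNF superfamily ligands and receptors that act in costimulation, the family of Cd40, 5 of 17 genes rose and 1 fell. Cd40 itself was 1 of these 5. The share called was 35.3%, against 13.2% of all genes. The median was 0.0057, so the rises were of few genes. Tnfsf9, the ligand 4-1BBL that stimulates T cells through 4-1BB, rose by 1.95 ± 0.14 (SD, n = 3 sets, limma, adjusted p = 1.46e-05), and its 6 arrays lay between 1.82 and 2.18. Fas, the death receptor of the same superfamily, rose by 1.16 ± 0.15, and its arrays lay between 0.945 and 1.46. Lta, which encodes lymphotoxin alpha, rose by 0.30 ± 0.10 (adjusted p = 0.0149), but was not called with Cy3 arrays alone, with zeros kept or with incomplete probes (adjusted p = 0.0727, 0.0823 and 0.0553). Tnfrsf1b, a TNF receptor gene, rose by 0.26 ± 0.03 (adjusted p = 0.00928). Tnfrsf25, the receptor of TL1A, fell by 0.26 ± 0.09 (adjusted p = 0.0204). Without set 1, Tnfrsf1b (0.27, adjusted p = 0.0754) missed the threshold, and Tnfrsf25 missed it with set 1, 2 or 3 left out (-0.30, -0.21 and -0.26). Cd40lg, which encodes the ligand of CD40 and is chiefly a T cell gene, averaged -0.049 ± 0.065 and was not called.

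**Figure D3:**
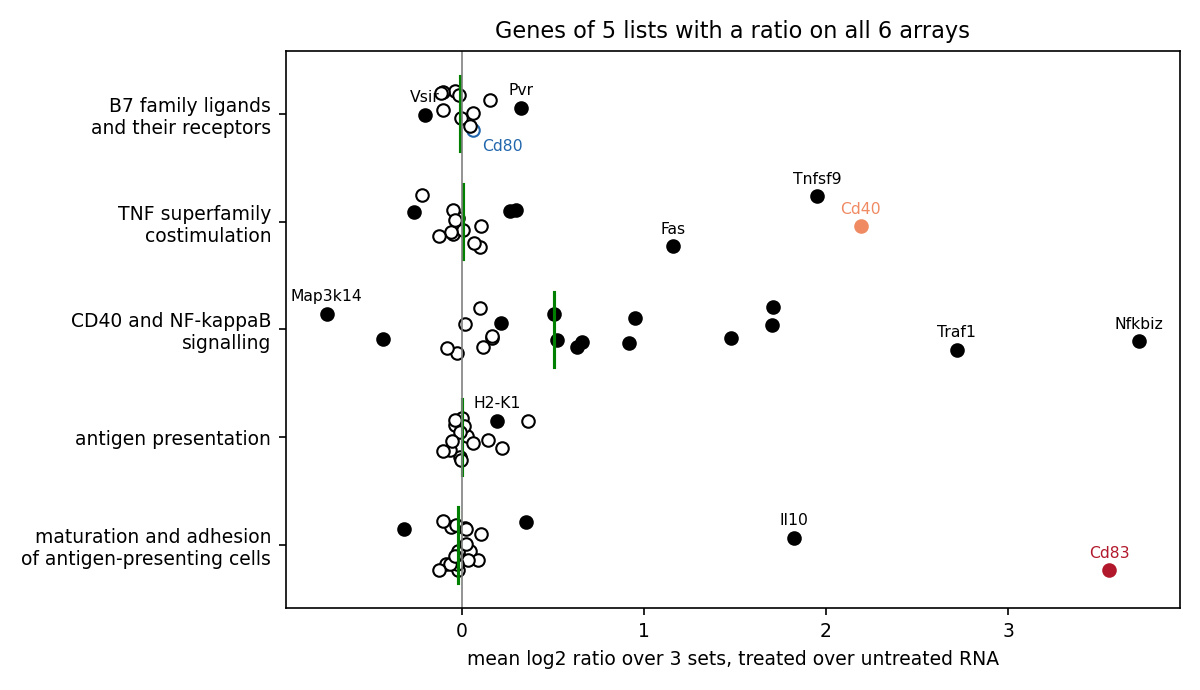
Mean log2 ratio over 3 sets (horizontal axis) of the genes of 5 lists with a ratio on all 6 arrays, 1 point a gene, spread vertically within a list for legibility only. Filled points passed the test, open points did not, and green bars are list medians. Cd83 at 3.56, Cd40 at 2.19 and Cd80 at 0.065 are coloured, and the list of CD40 and NF-kappaB signalling is the one whose median, 0.51, lies clearly to the right of 0.

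A larger share was called in the list of CD40 and NF-kappaB signalling. It mixes genes that carry the signal to NF-kappaB with NF-kappaB subunits and their inhibitors. Of 21 measured, 12 rose and 2 fell (66.7%, against 13.2% of all genes), and the median was 0.51. Traf1, an adaptor that acts with TRAF2 at CD40, rose by 2.72 ± 0.23 and Birc3, a ubiquitin ligase recruited by TRAF2, by 1.71 ± 0.07. Relb, the NF-kappaB subunit of the noncanonical branch that CD40 activates, rose by 1.48 ± 0.08, and its precursor partner Nfkb2 rose by 0.95 ± 0.09. Nfkbiz, which encodes a nuclear IkappaB protein, rose by 3.72 ± 0.17, and Tnfaip3, which encodes the NF-kappaB inhibitor A20, rose by 1.70 ± 0.28. The mean of Nfkbiz was 4.57 when the probe of largest ratio stood for the gene, so its probes disagreed in size. Map3k14, the kinase NIK that starts the noncanonical branch, fell by 0.74 ± 0.10 (limma, adjusted p = 0.000385) and Tab1, which activates the kinase TAK1, fell by 0.43 ± 0.06, and both were below 0 on 6 of 6 arrays. Traf2, Traf5 and Traf6, the other TRAF adaptors measured on all arrays, averaged 0.10 ± 0.06, -0.079 ± 0.096 and 0.021 ± 0.069 and were not called. Ikbkb, Ikbkg, Map3k7 and Tab2, which also carry the signal, were not called either.

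Antigen presentation supplies the first signal of T cell activation. Of 16 genes measured, 1 rose and 0 fell (6.25%, against 13.2% of all genes), with a median of 0.00065. At an unadjusted p under 0.05, 4 were higher and 0 lower in treated RNA, but all genes were not counted at that threshold. With the 6 arrays as separate samples 4 were called higher and 0 lower (25.0%, against 17.3% of all genes). H2-K1, a classical MHC class I heavy chain, rose by 0.20 ± 0.05 (limma, adjusted p = 0.0312), but with set 1, 2 or 3 left out it did not pass (0.21, 0.17 and 0.21). Tapbp, which loads peptide onto class I, averaged 0.36 ± 0.29 (adjusted p = 0.0735) and passed without set 1 at 0.52 (adjusted p = 0.0246). Cd74, the invariant chain of MHC class II, averaged 0.22 ± 0.14 (adjusted p = 0.0656), and H2-D1 averaged 0.14 ± 0.04. Psmb9, a subunit of the immunoproteasome, averaged -0.10 ± 0.08. The class II chains H2-Ab1 (-0.036 ± 0.074) and H2-Eb1 (0.063 ± 0.10) and the class II transactivator Ciita (0.012 ± 0.030) were not called.

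In a list of maturation and adhesion genes that holds Cd83, 3 of 21 genes rose and 1 fell (19.0%, against 13.2% of all genes), and the median was -0.019. Besides Cd83, Il10, an anti-inflammatory cytokine, rose by 1.82 ± 0.06 (limma, adjusted p = 6.9e-06), with 1.68 to 1.90 over the 6 arrays. Il12a and Il15ra passed the test although their arrays disagreed by dye. Il12a, a subunit of interleukin 12, averaged 0.35 ± 0.10 over sets but lay between -0.64 and -0.20 with treated RNA in Cy5 and between 1.10 and 1.24 in Cy3, and it missed the threshold without set 1 (0.35, adjusted p = 0.0627), with incomplete probes (0.24) and with zeros kept (0.19). Il15ra, the receptor that presents interleukin 15, averaged -0.32 ± 0.10, with a mean of -0.0038 on the Cy5 arrays. Sirpa, an inhibitory receptor of myeloid cells, averaged -0.12 ± 0.13. Fscn1, the actin bundler of mature dendritic cells (0.035 ± 0.045), and Il12b (0.016 ± 0.11) were not called.

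The genes whose ratios lay closest to a member were found by the root mean square difference over the 6 arrays. For Cd83 these were Nfkbiz (0.218), Egr2 (0.351), Phlda1 (0.406) and Btg2 (0.558), with means of 3.72, 3.79, 3.37 and 3.04. The ratio of Nfkbiz is an average over probes that disagreed, and its probe of largest ratio averaged 4.57. For Cd40 they were Pde4b (0.115), Zfp36 (0.179), Gpr84 (0.244) and Ier2 (0.263), with means of 2.17, 2.14, 2.35 and 1.99. The distances of Cd83 are larger because few genes rose as far. Cd80 lay within 0.20 of 2847 genes, with Mpv17 (0.0313), Srpk3 (0.0364), Aox3 (0.0501) and H2bc22 (0.0648) nearest, and none of these 4 was called.

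The genes beside the members on the chromosome gave small ratios. Over the 2 protein-coding genes on each side of each member in the RefSeq order, 9 of 16 places had a probe and 8 had a ratio on all arrays, and these ranged from -0.13 to 0.17. None was called (0 of 8, against 13.2% of all genes) by limma on set averages. At an unadjusted p under 0.05, a threshold at which all genes were not counted, 2 passed. With the 6 arrays as separate samples 1 of 8 was called, against 17.3% of all genes. That gene was Jarid2, next to Cd83, a cofactor of a Polycomb complex, at 0.17 ± 0.04 (limma, adjusted p = 0.0503). Of the neighbours of Cd40, 1 had a probe, Cdh22, which averaged 0.11 ± 0.32 on incomplete data. The neighbours were named for their place alone.

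Facts of the whole series bear on these values as follows. Zeros made up between 8.99% and 23.9% of the values of an array. The medians of the measured ratios before turning lay between 0.0043 and 0.0159. With orientation means removed, arrays of the same set number correlated at r = 0.0056, -0.258 and -0.0636 over 11442 probes. Nothing in the labels ties a set to a culture of its own, and each p-value therefore measures the spread of these arrays alone, which may be technical. Since a ratio holds no level, the macrophage label could not be checked by marker abundance. Of 9 macrophage markers measured, 1 was called (11.1%, against 13.2% of all genes), Adgre1 at 0.55 ± 0.11. The macrophage list ranged from -0.11 to 0.55. Of 5 B cell markers 2 were called (40%, against the same 13.2%), Cd22 at 0.77 ± 0.12 and Cd79a at 0.20 ± 0.06. Of 4 T cell markers 1 was called (25%), Cd4 at 0.47 ± 0.21. The B cell list ranged from -0.19 (Ms4a1) to 0.77, and the T cell list from -0.047 (Cd3e) to 0.47. The 3 dendritic cell markers lay between -0.0028 and 0.032, and none was called. Lists this short give shares that rest on 1 or 2 genes. The call of Cd79a was lost with set 1, 2 or 3 left out (0.24, 0.20 and 0.17), and that of Cd4 without set 1 (0.52, limma, adjusted p = 0.052). With incomplete probes Cd22 fell short at 0.48 and Cd4 at 0.35 (adjusted p = 0.136 and 0.207), and with zeros kept at 0.34 and 0.14 (adjusted p = 0.0562 and 0.196). Their part in the results was not tested.

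**Figure D4:**
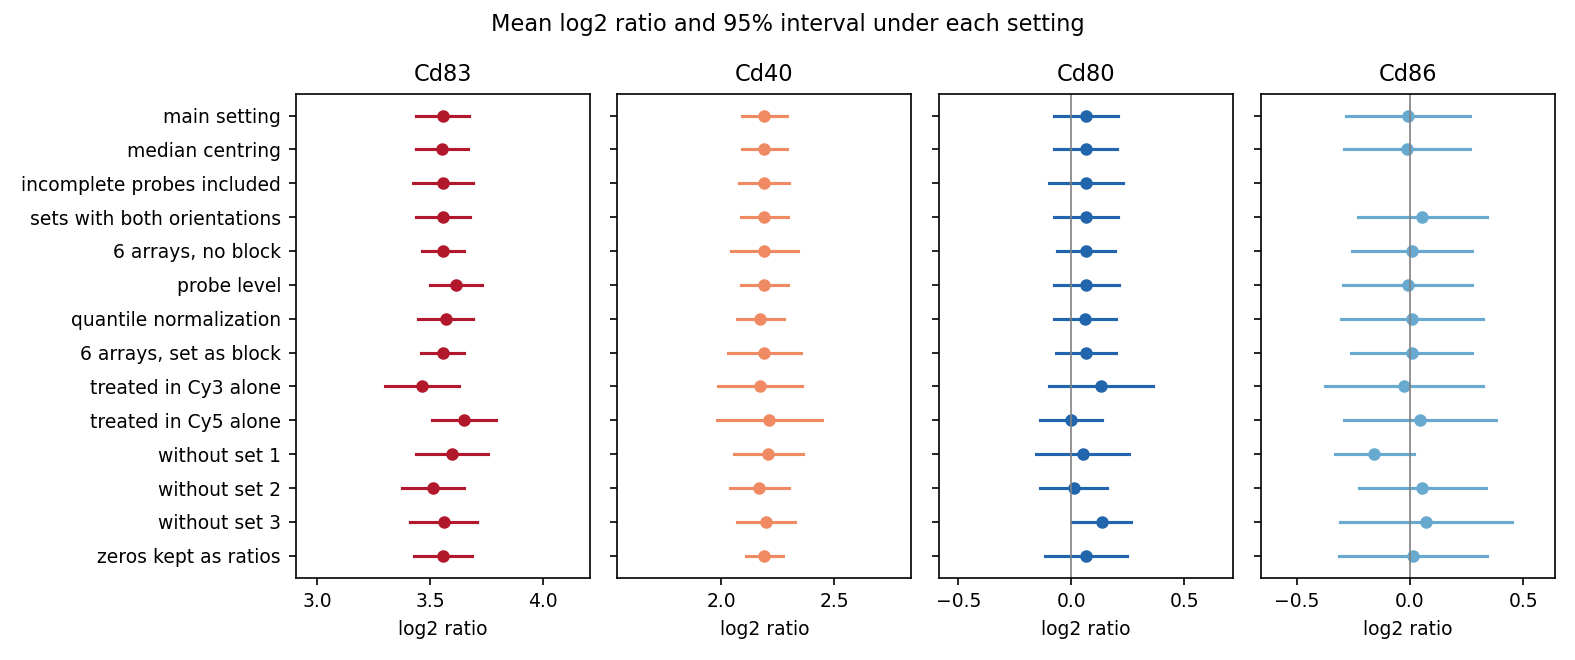
Mean log2 ratio (horizontal axis, points) with its 95% confidence interval (bars) for each member under the main setting and up to 13 alternatives (vertical axis), on axes of equal width. For Cd86 the main setting admits incomplete probes. Cd83 stays between 3.46 and 3.65 and Cd40 between 2.17 and 2.21, while Cd86 moves between -0.16 and 0.072.

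The rises of Cd83 and Cd40 were called under all 13 alternatives, with means of 3.46 to 3.65 for Cd83 and 2.17 to 2.21 for Cd40 and a highest adjusted p of 0.00485 for both (limma). Cd80 was not called under any of the same 13, nor Cd86 under any of 12, at adjusted p-values of 0.19 or more for Cd80 and 0.361 or more for Cd86.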

How the data were processed

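The authors deposited log2 ratios, with 16281 probes an array on 6 arrays. The base was read from the values: on each array, 99.73% to 99.89% of those other than 0 are 6-digit log10 numbers divided by log10 of 2 (relative tolerance 1e-13). The scanner, background correction and normalization are not given in the sources used here, and the number of arrays limits the precision. Ratios of arrays whose Cy3 channel held treated RNA had their sign turned. The platform annotation, which can be old, named 13738 probes with a single symbol, 52 with more than one and left 2491 unnamed; updating through RefSeq (GRCm38.p6, 13694 probes matched) changed 0 symbols. Probes complete on all arrays (9968) were averaged to 8331 genes. For each set both orientations were averaged, and limma 3.58.1 (R 4.3.3, two-sided, 2 residual and 4.08 prior degrees of freedom, Benjamini-Hochberg over all genes) compared the 3 averages with 0. Incomplete probes needed values in 2 sets. The fits were tested on simulated data. Genes named by rule were the members, up to 5 of largest absolute mean per list and 4 nearest per member. Others, such as Cd274, Cd40lg, Tnfrsf25, Nfkb2, Map3k14, Tab1, Traf2, Traf5, Traf6, H2-Ab1, H2-Eb1, Ciita, Fscn1 and Il12b, were chosen after their values were seen. The members, lists and alternatives were chosen with earlier results of these data known. Alternatives were leaving out a set, 6 arrays with and without a set block, each orientation alone, zeros kept, incomplete probes, median centring, quantile normalization and, for every gene, the probe of largest absolute mean in place of the average.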

Additional observations from a re-analysis of the deposited data

How the results depend on the processing

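Cd83 and Cd40 kept direction and call under every alternative run. So did 22 of 36 other called genes, namely those called in a list or marker set and those nearest to a member. The count of changed genes (1097) was 655 with incomplete probes (614 shared), 649 with Cy3 arrays alone (535 shared), 522 with zeros kept (510 shared) and 499 (without set 1) to 832 (without set 3) with a set left out. The 6 arrays gave 1439 calls without and 1340 with the replicate block, and the block changed no call of Cd83, Cd40, Cd80 or Cd86. Same-numbered arrays did not deviate together (r = 0.0056, -0.258 and -0.0636), and the correlation within the block was estimated at 0.0825. Deviations from a mean of 3 arrays cannot decide whether same-numbered arrays share RNA. The set averages, and the SDs over sets, may therefore rest on an arbitrary pairing. With Cy5 arrays alone the sign turned for Cd80 (-0.0014), Cd86 (0.044), Aox3 (-0.0099), H2bc22 (-0.0061), Mpv17 (-0.0054), Srpk3 (-0.017), Il12a (-0.46), Pdcd1lg2 (0.42) and Psmb9 (0.0086). Srpk3 ranged from -0.014 to 0.11 with a set left out. Cd86 also turned to 0.055 with sets of both orientations only (chosen after seeing the data), 0.0090 without and 0.0079 with the replicate block, 0.0082 after quantile normalization and 0.013 with zeros kept, and ranged from -0.16 to 0.072 with a set left out. With 4 arrays the member differences reached no p under 0.125, at 1.34 to 1.39 (Cd83 minus Cd40), 3.43 to 3.54 (Cd83 minus Cd80) and 2.06 to 2.16 (Cd40 minus Cd80). The B7 list had 2 calls of 12 genes, 1 in Cy3 alone, 0 in Cy5 alone and 0 to 1 with a set left out. Antigen presentation had 1 call of 16 genes. It had 0 with incomplete probes (20 genes), with zeros kept (22 genes) or with either orientation alone. It had 4 without and 3 with the replicate block, and 0 to 1 with a set left out. The maturation list had 4 calls of 21 genes, and 2 of 29 with zeros kept. The count over all genes moved between settings too, and these list counts were not set against it here. The cause of these changes was not tested. Without intensities, signal over background is unknown for every probe, and nothing was measured on the Cy3 array of set 2 for Cd86.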
